A study of Sus scrofa with 36 samples.

Results

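The 10 mitosis genes CCNB2, CDC25C, CDC20, TTK, NDC80, CDCA8, ECT2, KIF23, NUSAP1 and DLGAP5 were followed through the first 4 weeks after birth in the pig heart. They were picked by name from a gene count table of 9815 genes on 4 chromosomes (1, 2, 6 and 13), and all 10 were among the 5526 genes with enough counts to test. CCNB2, CDC25C, CDC20, TTK, NDC80, CDCA8, ECT2, KIF23 and DLGAP5 carry their names in the table. NUSAP1 has no name there and was found by its gene ID, ENSSSCG00000035544, through a reference list of pig gene names.

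Hearts of domestic Yorkshire pigs were collected on postnatal days 1, 3, 7 and 28 (P1, P3, P7 and P28), rinsed and frozen. The pigs were fed normally, and the labels name no allele, transgene or drug. The counts are from batch cd, in which CD Genomics sequenced total RNA of 12 hearts, 3 at each age, and each library is called here by its age and by the number (4, 5 or 6) in its column name. The study used hearts of both sexes at each age, and the sex of each of these 12 pigs was not used here.

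Cells enter mitosis when CDK1 binds a B-type cyclin and loses its inhibitory phosphates, and they leave it when the anaphase-promoting complex marks that cyclin and securin for destruction. In between, chromosomes attach to spindle microtubules at kinetochores, a checkpoint delays anaphase until all are attached, and cytokinesis then divides the cell. Heart muscle cells of newborn mammals divide for a short time after birth, and later cycles often end without cytokinesis, which leaves cells with more than 1 nucleus. Many genes of these steps are transcribed mainly in G2 and mitosis, and they are widely used as marks of cycling cells. In a bulk heart library, fewer cells of a type and less RNA per cell cannot be told apart.

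CCNB2 encodes cyclin B2, a partner of CDK1, and CDC25C encodes a phosphatase that removes the inhibitory phosphates from CDK1. CDC20 is the activator of the anaphase-promoting complex that the spindle checkpoint holds back, TTK (also called MPS1) is the kinase that starts the checkpoint signal, and NDC80 is the kinetochore subunit that grips microtubules. CDCA8, also called borealin, is a subunit of the chromosomal passenger complex, which carries Aurora B kinase to centromeres and then to the midzone. ECT2 is the exchange factor that activates RhoA at the cleavage furrow, and KIF23 (MKLP1) is the kinesin of the centralspindlin complex that recruits ECT2. NUSAP1 and DLGAP5 (also called HURP) bind and stabilise spindle microtubules near chromosomes.

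By the positions in the table, CCNB2 lies at 112907047 to 112942219, TTK at 86076583 to 86125718, KIF23 at 167240013 to 167282158, NUSAP1 at 129992799 to 130065605 and DLGAP5 at 184499914 to 184550020, all on chromosome 1. CDC20 lies at 167886270 to 167890583, NDC80 at 103998698 to 104055762 and CDCA8 at 93750687 to 93765483 on chromosome 6. CDC25C lies at 140263301 to 140324425 on chromosome 2 and ECT2 at 111248134 to 111314828 on chromosome 13. The table does not name its genome build, and 8 of the 10 genes start within 1000 bases of the same gene in RefSeq's Sscrofa11.1 annotation. Of the 10, 5 overlap with other genes of the table, CDC25C and NUSAP1 over the largest part of their span. The row named CDC25C spans CDC25C and its neighbour GFRA3, and the reference list gives its gene ID (ENSSSCG00000014329) the name GFRA3. A second row with the same start and end (ENSSSCG00000051455), unnamed and typed as a pseudogene in the table, is the one the reference list names CDC25C. It held between 96.8% and 99.5% as many counts as the first row in each library, so reads of CDC25C and GFRA3 cannot be told apart. NUSAP1, with 569 to 3506 counts in a library, overlaps NDUFAF1 (1113 to 2222 counts) over 22.8% of its span and OIP5 (23 to 364 counts) over 14.5%. CDCA8 overlaps EPHA10 over 2.41% of its span, NDC80 overlaps ENSSSCG00000020888 over 1.28% and a U6 RNA gene over 0.156%, and none of these 3 had more than 7 counts in a library. ECT2 overlaps NCEH1, which had 8162 to 20166 counts in a library, over 7 bases. The library kit marks strand, but the strand setting of the counting is not given in the sources used here.

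Counts per library totalled 8887176 to 14883849, and 7.09% to 19.7% of them fell on 9 genes annotated as signal recognition particle RNA. The 10 genes together had between 1737 counts (P28 pig 6) and 18102 counts (P7 pig 5) in a library, and the lowest count of any of them in any library was 20, for CDCA8 in P28 pig 6. Levels are given in CPM, the unit in which counts are scaled to a common library size, here with TMM factors that offset differences in RNA composition. Of 18 listed cardiomyocyte markers 7 were in the table, and each had at least 821 CPM in all 12 libraries.

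Among the P3 hearts, pig 6 stood apart in the mitosis genes. It had the highest level of the 3 P3 libraries in all 10 genes, against 27.7% of all genes tested. Its level was 1.48 to 3.48 times that of the next P3 library, with a median of 2.40, and at least 1.5 times in 9 of the 10, against 4.13% of all genes. Its median ratio to the P1 mean over the 10 genes was 1.69, against 0.546 in P3 pig 4 and 0.608 in P3 pig 5. Across all genes other than these 10, P3 pig 6 was most like P1 pig 6 and P3 pig 4 was most like P1 pig 5, while the other 10 libraries were each most like a library of their own age. P3 pig 5 had the weakest best match of the 12 libraries (rho = 0.972, with P3 pig 6), and the next weakest was 0.986 (P1 pig 4). P3 pig 5 had the lowest total count, and the summed level of the smooth muscle and pericyte markers PDGFRB and NOTCH3 ranged from 425 to 1185 CPM at P3, against 349 to 419 CPM at P1. The part of these differences in the P3 results was not tested, and results that rest on P3 are given with and without pig 6. Pig 6 was singled out by its levels of these same 10 genes. Leaving it out therefore has to lower their P3 means and enlarge the step to P7, so the values without it are descriptions and not a test.

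In all 10 genes the mean level was highest at P7 and lowest at P28, a pattern that 11.1% of all genes tested had. Without P3 pig 6 the P7 mean was again the highest in all 10, but the P28 mean was the lowest in 6, and 9.81% of all genes then had both. The mean of the other 2 P3 pigs was below the P28 mean for TTK (15.2 CPM), NDC80 (9.63 CPM), ECT2 (33.2 CPM) and NUSAP1 (79.3 CPM). The test for any difference among the 4 ages (edgeR's quasi-likelihood test, Benjamini-Hochberg adjusted over all 5526 genes) was passed by 10 of 10 genes, against 21.4% of all genes, with adjusted p from 0.00149 for TTK to 0.00821 for CDC20.

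**Figure D1:**
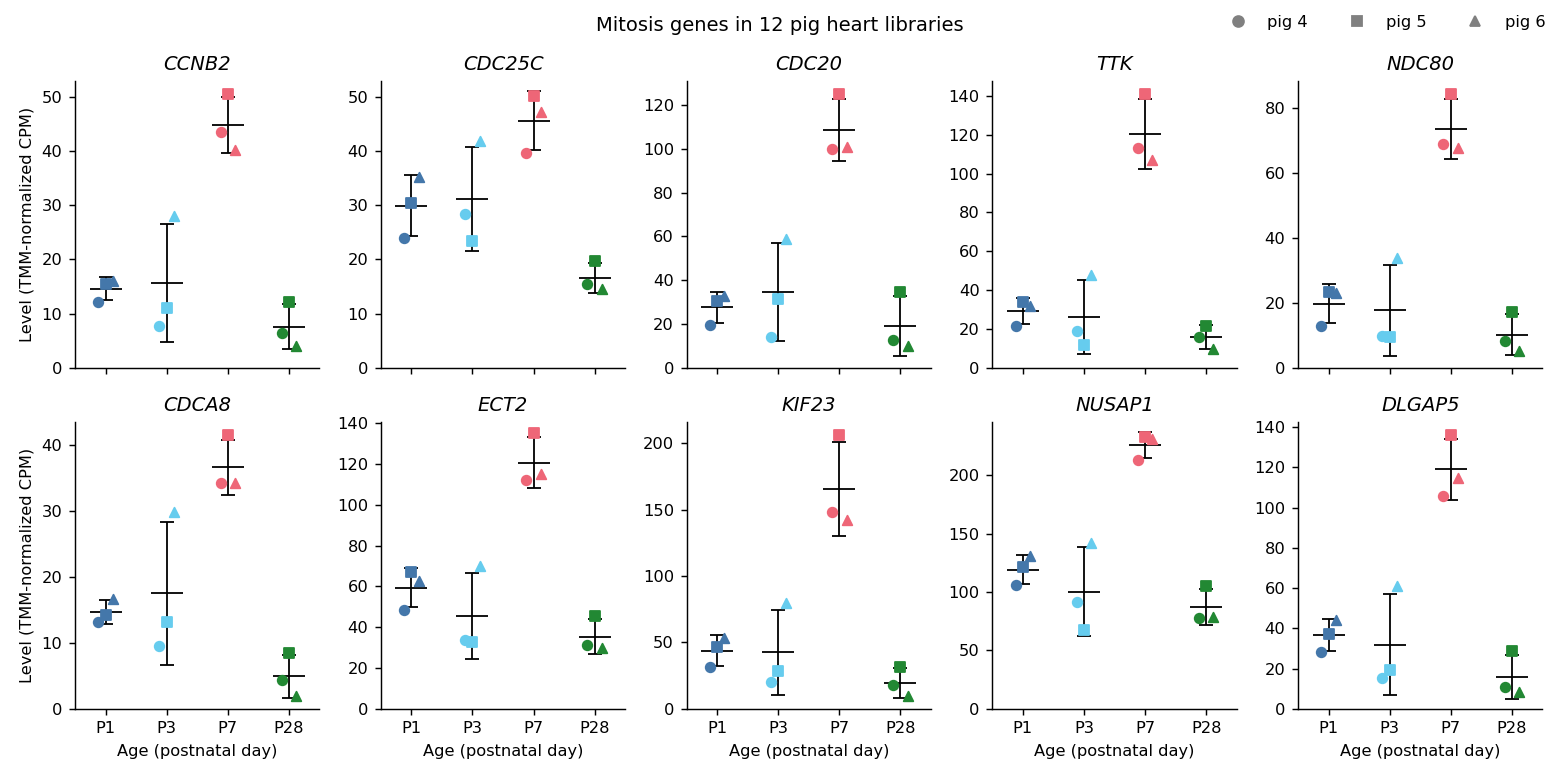
Level (TMM-normalized CPM, linear axis from 0) of each mitosis gene at P1, P3, P7 and P28 in 12 libraries; each symbol is 1 pig, the symbol shape gives its number, and the horizontal bar with whiskers is the mean ± SD of 3 pigs. The 3 P7 pigs lie above all P1 and P28 pigs in each panel, and P3 pig 6 is the highest P3 library in each.

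For entry into mitosis, CCNB2 had 12.2, 15.5 and 16.1 CPM in the P1 pigs and 7.66, 11.1 and 28.0 CPM in the P3 pigs. It had 43.6, 50.6 and 40.3 CPM at P7 and 6.50, 12.2 and 4.04 CPM at P28. The P7 libraries were the 3 highest, and the P1 and P28 ranges met at 12.2 CPM. CDC25C had 24.0, 30.4 and 35.2 CPM at P1, 28.3, 23.3 and 41.9 CPM at P3, 39.6, 50.1 and 47.2 CPM at P7, and 15.4, 19.7 and 14.5 CPM at P28. Here P3 pig 6 lay above the lowest P7 library, and all 3 P28 libraries lay below every other library.

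For the checkpoint and the anaphase-promoting complex, CDC20 had 19.4, 30.5 and 32.8 CPM at P1 and 14.1, 31.2 and 58.7 CPM at P3. Its P7 values were 99.9, 125 and 101 CPM, and at P28 it had 12.8, 34.6 and 9.75 CPM. P28 pig 5 was thus above every P1 library for CDC20, the only one of the 10 genes for which that held. TTK had 21.3, 33.7 and 32.0 CPM at P1 and 18.8, 11.6 and 47.6 CPM at P3, then 113, 141 and 107 CPM at P7 and 16.0, 21.7 and 9.65 CPM at P28. NDC80 had 13.0, 23.3 and 23.1 CPM at P1, 9.69, 9.57 and 33.7 CPM at P3, 68.9, 84.4 and 67.8 CPM at P7, and 8.10, 17.3 and 5.22 CPM at P28. In all 3 genes the lowest P7 library was above the highest library of any other age.

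CDCA8, the passenger complex subunit, had 13.1, 14.3 and 16.7 CPM at P1, 9.51, 13.1 and 29.9 CPM at P3, 34.2, 41.5 and 34.3 CPM at P7, and 4.33, 8.48 and 1.97 CPM at P28. Its P28 libraries lay below every library of the other ages, and P3 pig 6 came close to the P7 libraries.

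For cytokinesis, ECT2 had 48.5, 67.0 and 62.5 CPM at P1 and 33.7, 32.7 and 70.1 CPM at P3. It reached 112, 135 and 115 CPM at P7 and was at 31.2, 45.4 and 29.6 CPM at P28, below all P1 libraries but overlapping with P3. KIF23 had 31.2, 46.9 and 53.4 CPM at P1, 20.1, 28.6 and 79.3 CPM at P3, 148, 206 and 142 CPM at P7, and 17.8, 31.6 and 9.26 CPM at P28. For KIF23 the highest P28 library (pig 5) was just above the lowest P1 library.

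For the spindle, NUSAP1 had 106, 121 and 130.4 CPM at P1, 91.4, 67.2 and 142 CPM at P3, 213, 233 and 231 CPM at P7, and 77.5, 105 and 78.8 CPM at P28. Its P28 libraries were below all P1 libraries by a narrow margin. DLGAP5 had 28.3, 37.4 and 44.1 CPM at P1 and 15.3, 19.4 and 61.0 CPM at P3, followed by 106, 136 and 115 CPM at P7 and 10.7, 28.5 and 8.27 CPM at P28. P28 pig 5 was inside the P1 range for DLGAP5, and the other P28 pigs were below it.

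Per kilobase of gene model, the mean levels at P7 were highest for NUSAP1 (59.7 ± 2.83 CPM per kb, SD, n = 3) and CDC20 (59.4 ± 7.76), whose libraries overlapped. KIF23 (31.3 ± 6.70), DLGAP5 (28.0 ± 3.57), TTK (23.0 ± 3.47), CCNB2 (21.7 ± 2.56), ECT2 (17.6 ± 1.80) and NDC80 (14.6 ± 1.85) lay below these, and each overlapped with the next gene in this order. CDCA8 (9.12 ± 1.03 CPM per kb) and CDC25C (7.02 ± 0.833) were lowest, without overlap with their neighbours. At P28 the order had changed: NUSAP1 (23.0 ± 4.06 CPM per kb) was above every other gene in all libraries, and CDCA8 (1.22 ± 0.819) had the lowest mean. The CDC25C row is scaled by a gene model of 6.5 kb on a span that also holds GFRA3. The NUSAP1 row can hold reads of NDUFAF1 and OIP5, so the places of both are those of their rows.

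Between P1 and P3 no mitosis gene passed the test. Log2 fold changes (P3 minus P1) ran from -0.38 for ECT2 to 0.34 for CDC20, 4 genes were higher and 6 lower in the mean, and adjusted p ran from 0.494 to 0.979. No gene had an unadjusted p under 0.05, and 0.0543% of all genes tested passed. By the thresholds the study set for its own calls (an unadjusted p up to 0.05 together with a log2 fold change of more than 0.5 in either direction), none of the 10 changed, against 6.95% of all genes higher and 3.64% lower at P3. Without P3 pig 6 all 10 log2 fold changes were below 0, from -1.06 (DLGAP5) to -0.20, and again none passed, against 0.291% of all genes. By the thresholds of the study TTK, NDC80, ECT2, NUSAP1 and DLGAP5 were then lower at P3, against 5.22% of all genes.

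Between P1 and P7 all 10 genes were higher, and in all 10 the P7 libraries did not overlap with the P1 libraries, against 15.3% of all genes tested. TTK rose 4.16-fold (log2 fold change 2.06 ± 0.42, SE, n = 3 and 3, adjusted p = 0.0322), the 1 gene to pass an adjusted p of 0.05, which 1.47% of all genes did in this direction. The other 9 had unadjusted p-values of 0.0168 or less and adjusted p-values of 0.0517 to 0.179. By the thresholds of the study 10 of 10 genes were higher at P7, against 7.65% of all genes. The log2 fold change was 1.98 ± 0.49 for CDC20, 1.92 ± 0.48 for KIF23, 1.90 ± 0.49 for NDC80, 1.70 ± 0.50 for DLGAP5 and 1.62 ± 0.43 for CCNB2. It was smaller for CDCA8 (1.32 ± 0.43), ECT2 (1.03 ± 0.27), NUSAP1 (0.92 ± 0.22) and CDC25C (0.61 ± 0.22), and the median of the 10 was 1.66 against -0.01 over all genes. How many genes pass rests on the fit: leaving out any 1 of the P1 or P7 libraries took TTK over the threshold (adjusted p from 0.0607 without P7 pig 6 to 0.128 without P7 pig 5) and left 0 genes, against 0.327% to 0.455% of all genes. Without P3 pig 6 there were 8, without P3 pig 5 there were 6 and without P3 pig 4 there were 4, against 2.69%, 3.96% and 2.07% of all genes. Without P28 pig 5 there were 2, against 1.16%.

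From P3 to P7 the 10 genes were also all higher, by log2 fold changes of 0.55 (CDC25C) to 2.20 (TTK). TTK (2.20 ± 0.43, adjusted p = 0.0269), ECT2 (1.40 ± 0.27, adjusted p = 0.0275) and NUSAP1 (1.17 ± 0.22, adjusted p = 0.0253) rose, against 1.61% of all genes. P7 libraries did not overlap with P3 libraries in 9 genes, all but CDC25C, against 12.2% of all genes. By the study's thresholds 10 of 10 genes were higher, against 6.51% of all genes. Without P3 pig 6 the log2 fold changes were 0.81 to 2.97 and 9 genes rose, against 2.73% of all genes. Then P7 libraries did not overlap with the other 2 P3 libraries in 10 of 10 genes, against 17.6%, and 10 of 10 were higher by the study's thresholds, against 7.10%. Without P28 pig 5 there were 5 that rose and without P1 pig 6 there was 1, against 1.36% and 0.545% of all genes. None rose without P3 pig 5 or without any 1 of the P7 pigs, against 0.273% to 0.599%. P7 vs P1 and P7 vs P3 share the P7 libraries.

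**Figure D2:**
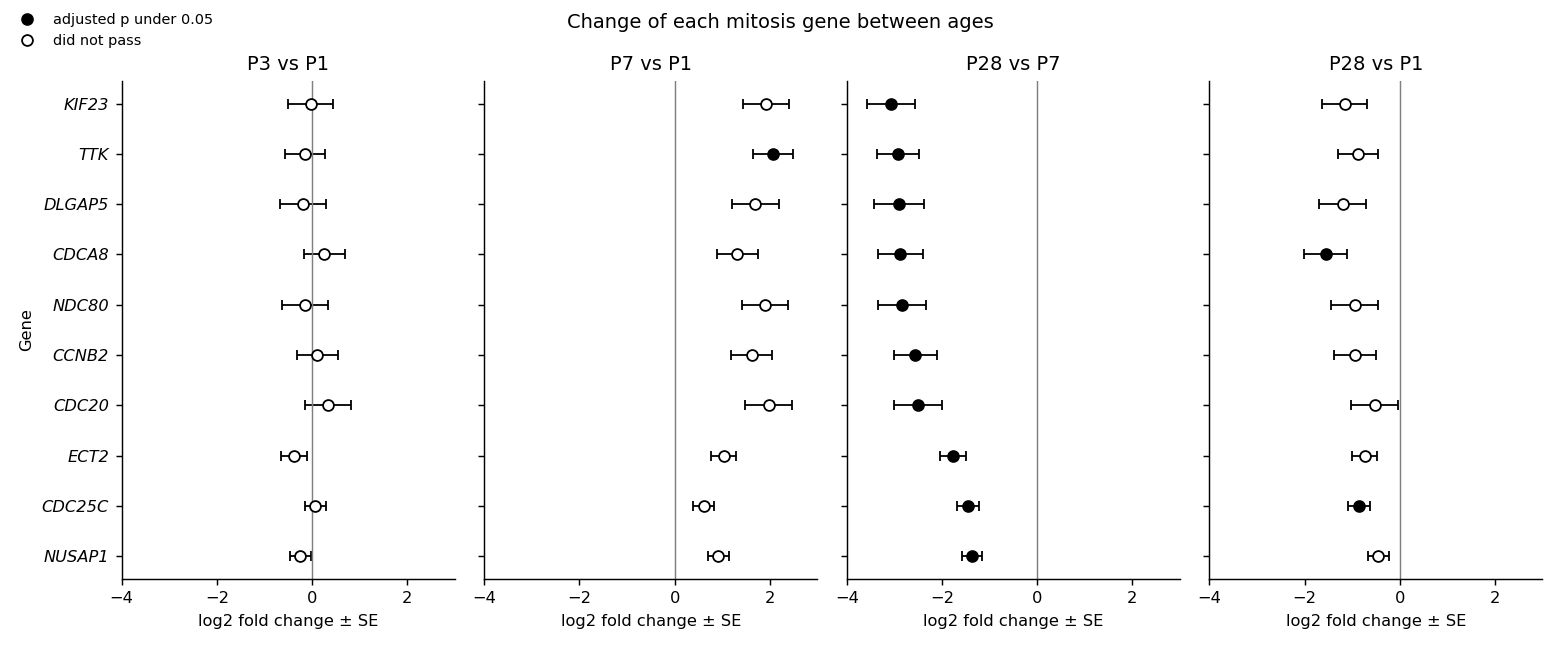
Log2 fold change (horizontal axis, ± SE) of each mitosis gene from P1 to P3, from P1 to P7, from P7 to P28 and from P1 to P28; filled circles passed an adjusted p of 0.05 and open circles did not. All 10 circles are filled from P7 to P28, where changes run from -1.37 (NUSAP1) to -3.07 (KIF23), and only TTK is filled from P1 to P7.

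From P7 to P28 all 10 genes fell, against 10.5% of all genes tested, with adjusted p from 0.00124 (TTK) to 0.00472 (CDC20). KIF23 was 8.42-fold lower at P28 (log2 fold change -3.07 ± 0.51), TTK 7.60-fold (-2.93 ± 0.44), DLGAP5 7.49-fold (-2.90 ± 0.52), CDCA8 7.37-fold (-2.88 ± 0.47) and NDC80 7.18-fold (-2.84 ± 0.51). CCNB2 was 5.88-fold lower and CDC20 5.69-fold. The smallest falls were those of ECT2 (3.41-fold), CDC25C (2.76-fold) and NUSAP1 (2.59-fold, log2 fold change -1.37 ± 0.22). P28 libraries were below all P7 libraries in 10 of 10 genes, against 23.3% of all genes. By the thresholds of the study all 10 were lower as well, against 14.0% of all genes. All 10 passed when any 1 of the 12 libraries was left out, but the size of the fall rested in part on P28 pig 5. Without it the log2 fold change was -3.63 for DLGAP5, -3.59 for KIF23, -3.51 for CDCA8, -3.45 for NDC80 and -3.25 for CDC20, so that DLGAP5 and not KIF23 had the largest fall, and the fold moved by over 1.5 times for CDC20, NDC80, CDCA8 and DLGAP5. No other left-out library moved a fold from P7 to P28 that far in these 10 genes.

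Set against P1, the level at P28 was lower in the mean of all 10 genes, by log2 fold changes of -0.45 (NUSAP1) to -1.56 (CDCA8). CDC25C (-0.85 ± 0.23, adjusted p = 0.0244) and CDCA8 (-1.56 ± 0.46, adjusted p = 0.0381) fell, against 7.93% of all genes. The P28 libraries were below all P1 libraries in CDC25C, CDCA8, ECT2 and NUSAP1, against 21.9% of all genes. In these data the mean at P28 was 33.6% of the P1 mean for CDCA8, 43.3% for DLGAP5, 44.6% for KIF23, 69.2% for CDC20 and 73.1% for NUSAP1. Without P28 pig 5 these were 21.5%, 26.0%, 30.9%, 41.0% and 65.6%, and the log2 fold change from P1 moved to -2.20 for CDCA8, -1.94 for DLGAP5, -1.56 for NDC80 and -1.28 for CDC20. DLGAP5 (adjusted p = 0.0343) then fell along with CDC25C and CDCA8, against 5.41% of all genes. The call for CDC25C was lost without P1 pig 5, P1 pig 6, P28 pig 4 or P28 pig 6 (adjusted p 0.0636 to 0.0966). That for CDCA8 was lost without any 1 of the P1 or P7 pigs or without P28 pig 4 or 6 (adjusted p 0.0523 to 0.116), and without P3 pig 6 there were 5 genes that fell, against 9.46% of all genes. By the thresholds of the study 5 genes were lower, against 12.1% of all genes. From P3 to P28, CDC25C (-0.92 ± 0.23, adjusted p = 0.0170) and CDCA8 (-1.82 ± 0.46, adjusted p = 0.0188) fell, against 8.51% of all genes. Their P28 libraries were below all P3 libraries, against 16.4% of all genes, and by the thresholds of the study 4 genes were lower, against 13.7%. Without P3 pig 6 none passed the adjusted p (CDC25C 0.0565 and CDCA8 0.0787, adjusted p), against 6.72% of all genes that fell, with log2 fold changes over the 10 genes of -1.20 to 0.12. CDC25C and CDCA8 were then the 2 genes below both other P3 libraries, against 20.9% of all genes, and the 2 lower by the thresholds of the study, against 14.2%. None passed without P28 pig 4 or P28 pig 6 either, against 4.75% and 4.99%, and there were 4 without P3 pig 4 and 4 without P28 pig 5, against 11.7% and 5.72%.

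At each age 1 pig lay at the same end in all 10 genes, as P3 pig 6 did at P3. P7 pig 5 was the highest P7 library in 10 of 10 genes, against 35.0% of all genes, and P28 pig 5 was the highest P28 library in 10 of 10, against 30.5%. P1 pig 4 was the lowest P1 library in 10 of 10, against 40.1%. The median ratio to the P1 mean over the 10 genes was 0.788 in P1 pig 4, 1.07 in P1 pig 5 and 1.15 in P1 pig 6. At P3 it was 0.546, 0.608 and 1.69 in pigs 4, 5 and 6, at P7 2.94, 3.59 and 2.95, and at P28 0.455, 0.771 and 0.305. No P28 library reached a median of 1, and the P3 libraries lay on both sides of it.

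**Figure D3:**
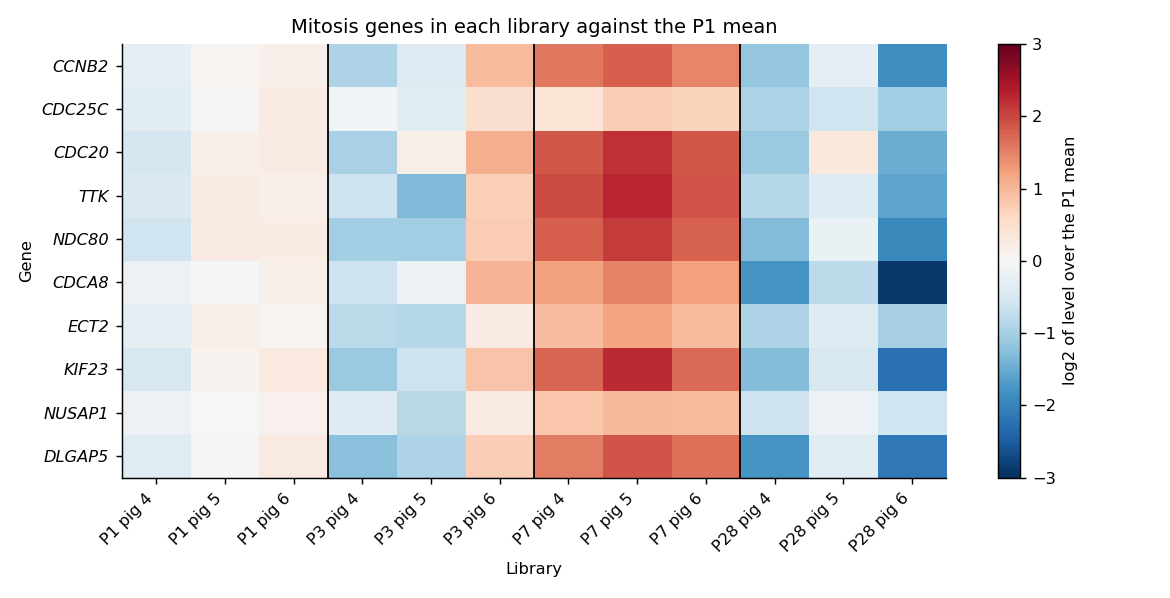
Log2 of each library's level over the P1 mean (colour scale from -3 to 3), for the 10 mitosis genes (rows) in the 12 libraries (columns, 3 pigs per age). P7 libraries are red in all rows and most P28 cells are blue, while P3 pig 6 is red where P3 pigs 4 and 5 are mostly blue.

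The 10 genes did not change by equal amounts. Each gene's log2 level was set against the mean of the other 9 in the same library, a quantity that library scaling does not move. From P1 to P7, TTK gained 0.62, CDC20 0.54, NDC80 0.47, KIF23 0.46 and DLGAP5 0.22 on the others, with no overlap between P7 and P1 libraries. CDC25C changed by -1.0, NUSAP1 by -0.66, ECT2 by -0.54 and CDCA8 by -0.22 relative to the others, also without overlap, and CCNB2 (0.11) overlapped. From P7 to P28 the 3 genes with the smallest falls gained on the others, by 1.30 for NUSAP1, 1.21 for CDC25C and 0.85 for ECT2. KIF23 (-0.75), CDCA8 (-0.64), DLGAP5 (-0.62), NDC80 (-0.52) and TTK (-0.49) lost, without overlap, whereas CCNB2 and CDC20 overlapped. CDCA8 was thus low against the others at both steps. These are descriptions, and the rows of CDC25C and NUSAP1 can hold reads of the neighbouring genes named above.

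Over the 12 libraries the log2 levels of the 10 genes correlated with each other with a median Pearson's r of 0.955 over 45 pairs, from 0.826 (CDCA8 and NUSAP1) to 0.996 (CCNB2 and KIF23). The libraries differ in age and, within an age, between pigs, so this describes a common course over both, and the part of each was not tested. Outside the 10, the genes most like their mean over the 12 libraries were KIF20A (r = 0.996), a kinesin of cytokinesis, PCLAF (0.996), a factor bound to the replication clamp PCNA, BUB1B (0.995), the checkpoint protein BubR1, and MIS18A (0.994), which helps load the centromeric histone. FBXO5 (0.991), an inhibitor of the anaphase-promoting complex, SHCBP1 (0.991) and STMN1 (0.990), a tubulin-binding protein, followed, along with the unnamed and mutually overlapping genes ENSSSCG00000039107 (0.994) and ENSSSCG00000042522 (0.990). Of 5515 other genes, 43 had an r over 0.95. KIF20A had 70.0 ± 15.3 CPM at P1, 60.6 ± 47.7 at P3, 235 ± 38.9 at P7 and 28.4 ± 16.8 at P28 (SD, n = 3). PCLAF had 30.7 ± 8.42, 25.2 ± 19.8, 109 ± 8.96 and 12.2 ± 6.87 CPM at these ages.

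Other genes of cell division that the table holds were counted by list, without the 10. Over 4 lists of mitotic genes (entry, kinetochore and checkpoint, spindle with condensation and cytokinesis, and the anaphase-promoting complex), 31 genes were tested. None passed between P1 and P3, against 0.0543% of all genes tested, and 12 rose from P1 to P7, against 1.47%. From P7 to P28, 23 fell and 1 rose, against 10.5% and 8.34% of all genes. The number that rose from P1 to P7 was 1 to 4 without any 1 of the P1 or P7 libraries, 15 to 20 without any 1 of the P3 libraries and 9 to 11 without any 1 of the P28 libraries. The number that fell from P7 to P28 ran from 21 to 25 with 1 library left out. In the same fits 0.327% to 0.455%, 2.07% to 3.96% and 1.16% to 1.33% of all genes rose from P1 to P7. From P7 to P28, 6.84% to 14.4% of all genes fell with 1 library left out. These shares also belong to the counts of the single lists below.

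Of the 3 mitotic entry genes measured, WEE1, the kinase that holds CDK1 back, had 38.8, 44.5 and 36.2 CPM at P1 and 84.4, 97.9 and 80.6 CPM at P7, and it rose (log2 fold change 1.14 ± 0.17, adjusted p = 0.00677). It was still at 65.6, 59.8 and 48.1 CPM at P28, above all P1 libraries, where its fall from P7 was -0.60 ± 0.17 (adjusted p = 0.0258). The rise of WEE1 was lost without P1 pig 6 (adjusted p = 0.0523), and its fall without P7 pig 4 or 5 or P28 pig 5 or 6 (0.0594 to 0.106). INCENP, the scaffold of the passenger complex to which CDCA8 belongs, rose by 1.41 ± 0.27 (adjusted p = 0.0289) and fell by 1.46 on the log2 scale (adjusted p = 0.00343). LIN37, a subunit of the DREAM complex that represses cell cycle genes, was the 1 gene of these lists that rose from P7 to P28 (0.39 ± 0.13, adjusted p = 0.0464, against 8.34% of all genes), a call lost without any 1 of the P7 or P28 libraries and without P1 pig 5 or 6 (0.0601 to 0.140).

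In the kinetochore and checkpoint list 6 of 10 genes rose from P1 to P7 and 9 of 10 fell from P7 to P28, against 1.47% and 10.5% of all genes, with a median log2 fold change of 1.63 and then -2.72, against -0.01 and 0.01 over all genes. Without any 1 of the P1 or P7 libraries 0 or 1 of the 10 rose, and 4 to 7 rose without any 1 of the others, whereas 9 fell whichever library was left out. SGO1, the protector of centromere cohesion, had 8.43, 11.2 and 9.72 CPM at P1, 28.0, 39.4 and 33.2 CPM at P7 and 3.53, 7.24 and 4.63 CPM at P28. MIS18A rose by 1.81 ± 0.36 (adjusted p = 0.0301) and changed by -2.82 ± 0.38 from P7 to P28 (adjusted p = 0.000733). CENPN, which binds the centromeric histone, rose by 1.62 ± 0.35 (adjusted p = 0.0396) and changed by -2.74 ± 0.37 (adjusted p = 0.000750).

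In the list for spindle, condensation and cytokinesis 3 of 12 genes rose from P1 to P7 and 10 of 12 fell from P7 to P28, with medians of 1.06 and -1.51, against 1.47% and 10.5% of all genes and medians of -0.01 and 0.01. Without any 1 of the P1 or P7 libraries 1 or 2 of the 12 rose. There were 5, 6 and 9 without P3 pig 4, 5 and 6, and the number that fell was 9 or 10 with 1 library left out. CKAP5, a microtubule polymerase, rose by 0.64 ± 0.12 (adjusted p = 0.0206), and HAUS8, a subunit of the augmin complex that branches spindle microtubules, rose by 1.07 ± 0.15 (adjusted p = 0.00375). KIF15, a spindle kinesin, had 29.4, 40.5 and 39.0 CPM at P1, 70.9, 85.2 and 69.1 CPM at P7 and 8.58, 12.3 and 6.80 CPM at P28. It did not pass from P1 to P7 (1.05 ± 0.36, adjusted p = 0.153) and fell from P7 to P28 (-3.02 ± 0.40, adjusted p = 0.000586) and from P1 to P28 (-1.97, adjusted p = 0.00568).

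Of 6 genes of the anaphase-promoting complex and its regulators, 1 rose from P1 to P7 and 2 fell from P7 to P28, against 1.47% and 10.5% of all genes. The 1 that rose was lost without any 1 of the P1, P7 or P28 libraries, against 0.327% to 1.33% of all genes. Without P3 pig 6, 2 rose, against 2.69%, and without P3 pig 5, 4 fell, against 14.4%. FBXO5 rose by 1.27 ± 0.29 (adjusted p = 0.0452) and changed by -2.08 ± 0.31 from P7 to P28 (adjusted p = 0.000991). UBE2S, the enzyme that extends ubiquitin chains for the complex, fell from P7 to P28 (-1.54 ± 0.22, adjusted p = 0.000890). The core subunits CDC23, CDC26 and ANAPC13 and the other activator FZR1 did not pass at either step, with 37.5 to 151 CPM in the mean at P7.

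Of 17 S phase genes, 5 rose from P1 to P7 and 15 fell from P7 to P28, against 1.47% and 10.5% of all genes, with medians of 1.05 and -1.91 against -0.01 and 0.01. CHAF1A and CHAF1B, subunits of the chromatin assembly factor, changed by 1.44 ± 0.28 (adjusted p = 0.0291) and 0.92 ± 0.22 (adjusted p = 0.0511) and then by -2.61 ± 0.30 (adjusted p = 0.000277) and -2.11 ± 0.23 (adjusted p = 0.000271). Without any 1 of the P1 or P7 libraries 0 or 1 S phase genes rose, and 8, 11 and 10 rose without P3 pig 4, 5 and 6. The count that fell ran from 13 to 17 with 1 library left out. From P1 to P28, 6 of the 17 fell, against 7.93% of all genes. This count was 1 without P1 pig 6, P28 pig 4 or P28 pig 6, against 4.44% to 5.06% of all genes. It was 3 without P1 pig 5, P7 pig 4 or P7 pig 6, against 5.44% to 6.79%. It was 4 without P1 pig 4 or P7 pig 5, against 6.53% and 6.73%, and 9 without P3 pig 6 or P28 pig 5, against 9.46% and 5.41%.

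Of 4 genes for G1 and cell cycle exit, CDKN2C, the CDK inhibitor p18, had 22.7, 41.2 and 36.7 CPM at P1, 98.5, 116 and 101 CPM at P7 and 23.2, 47.4 and 27.7 CPM at P28. It thus rose at P7 (1.65 ± 0.29, adjusted p = 0.0151) and fell afterwards (-1.68 ± 0.29, adjusted p = 0.00227). RBL2, the pocket protein p130 of quiescent cells, had 168, 153 and 166 CPM at P7 and 258, 247 and 264 CPM at P28, and it rose (0.66 ± 0.11, adjusted p = 0.00163). E2F4 and CDKN2B did not pass between these ages.

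Of the rises from P1 to P7 named in these lists, that of HAUS8 passed with any 1 library left out. Those of INCENP, MIS18A, CENPN and CHAF1A were lost without any 1 of the 6 P1 and P7 libraries (adjusted p 0.0529 to 0.137). SGO1 and CKAP5 lost theirs without any 1 of these but P7 pig 4 (0.0517 to 0.105), and CDKN2C without P1 pig 4 or 6 or P7 pig 5 or 6 (0.0505 to 0.0694). FBXO5 lost its rise without any 1 of the P1, P7 or P28 libraries (0.0554 to 0.178).

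**Figure D4:**
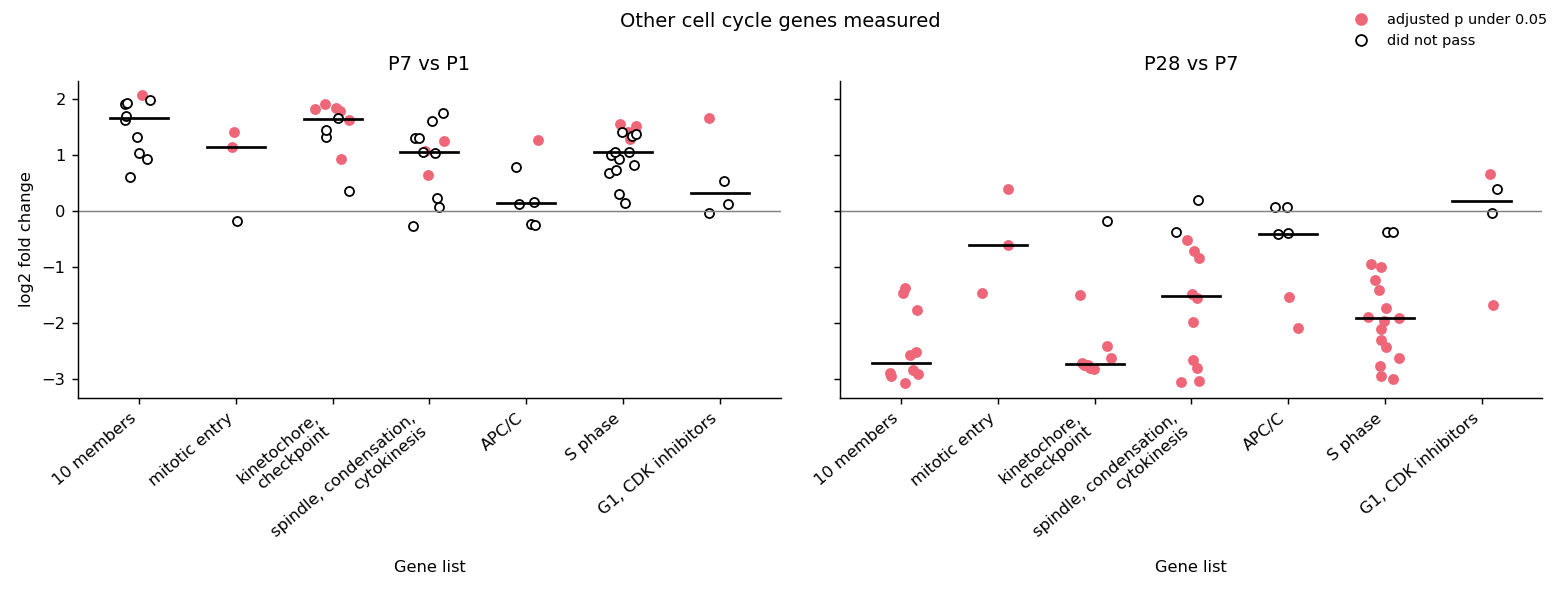
Log2 fold change (vertical axis) from P1 to P7 (left) and from P7 to P28 (right) of the 10 mitosis genes and of the other cell cycle genes measured, by list; each circle is a gene, filled circles passed an adjusted p of 0.05, and the horizontal bar is the median. Medians from P7 to P28 are below 0 for all sets but the 4 genes of G1 and cell cycle exit, whose median is 0.18.

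P3 pig 6 was also the highest P3 library in most genes of these lists, against 27.7% of all genes. It was highest in 3 of 3 entry genes, 9 of 10 kinetochore and checkpoint genes, 10 of 12 spindle and cytokinesis genes, 5 of 6 genes of the anaphase-promoting complex and 16 of 17 S phase genes, with median ratios to the higher of the other 2 of 1.25, 2.20, 1.86, 1.14 and 1.35. In the 4 genes of G1 and cell cycle exit it was highest in 2 (median ratio 0.995), and in the 7 cardiomyocyte markers in 2 (0.940). It was highest in 2 of 3 fibroblast markers (1.05), 1 of 4 endothelial (0.851), 1 of 5 leukocyte (0.817) and 1 of 2 epicardial markers (0.987), and in none of the 2 erythroid (0.705) or the 2 smooth muscle and pericyte markers (0.477).

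Markers of cell types moved with age as well. The summed level of 3 fibroblast markers (TCF21, MMP2 and FBN1, of 13 listed) was 3868 to 4309 CPM at P1, 2143 to 3041 at P3, 4042 to 4621 at P7 and 1133 to 1409 at P28, most of the sum being FBN1. All 3 fell from P7 to P28, as did both epicardial markers (TBX18 and ALDH1A2, of 8 listed), against 10.5% of all genes. The epicardial pair summed to 140 to 193 CPM at P1, 196 to 236 at P7 and 92.1 to 108 at P28. The sum of the 7 cardiomyocyte markers was 81883 to 90128 CPM at P1, 70061 to 78554 at P7 and 78542 to 91987 at P28. TNNI3 (0.71, adjusted p = 0.00403), TNNC1 (0.54, adjusted p = 0.0338) and MYBPC3 (0.69, adjusted p = 0.00424), which encode sarcomere proteins, rose on the log2 scale from P7 to P28, and the other 4 did not pass, against 8.34% of all genes. The 4 endothelial markers of 14 listed summed to 613 to 703 CPM at P1, 660.2 to 829 at P7 and 625 to 679 at P28. Of these TIE1 (-0.71, adjusted p = 0.0235) and ERG (-0.50, adjusted p = 0.0358) fell from P7 to P28, while CDH5 (-0.52) and TEK (0.43) did not pass. The 6 leukocyte markers of 19 listed summed to 831 to 894 CPM at P1, 544 to 741 at P7 and 836 to 1050 at P28, with MS4A1 at 0 counts in some P1 and P3 libraries. Most of this sum was CD79A, with means of 627 CPM at P1, 432 at P7 and 559 at P28. C1QA (1.10, adjusted p = 0.00530) and TYROBP (0.97, adjusted p = 0.0157) rose from P7 to P28. The 2 erythroid markers of 14 listed went apart. TFRC, which other dividing cells also express, made up nearly all of their sum, which was 1846 to 2858 CPM at P1, 1182 to 1261 at P7 and 1422 to 1817 at P28, and its change from P7 to P28 did not pass (0.38, adjusted p = 0.302). EPB42, with means of 4.06 CPM at P7 and 1.20 CPM at P28, fell (-1.77, adjusted p = 0.0142). The 2 smooth muscle and pericyte markers of 10 listed summed to 357 to 552 CPM at P7 and 209 to 458 CPM at P28, and neither passed. From P1 to P7 no marker passed (MS4A1 was too low to test), although the P1 and P7 ranges of the cardiomyocyte, leukocyte, erythroid and epicardial sums did not overlap. From P3 to P7 FBN1 rose (0.70, adjusted p = 0.0379), and no other marker passed. From P1 to P28 FBN1 (-1.82), TCF21 (-1.05), TBX18 (-0.83), ALDH1A2 (-0.74) and the cardiomyocyte marker ACTC1 (-0.60) fell (adjusted p 6.05e-05 to 0.034). MYBPC3 (0.57), TEK (0.53) and TYROBP (0.90) rose (adjusted p 0.0158 to 0.0356), and the other markers tested did not pass. The part of these cell types in the changes of the mitosis genes was not tested.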

How the data were processed

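Total RNA of 12 pig hearts (P1, P3, P7 and P28, 3 pigs each) was sequenced by CD Genomics, and the values the authors deposited are raw read counts for each gene. The labels name STAR 2.7.9a, MultiQC 1.11 and Sscrofa10.2, which the study gives for its circRNA alignment. The counter, annotation and build of the gene table are not given in the sources used here. Columns were placed by the age in their names. The rows analysed cover chromosomes 1, 2, 6 and 13, and 1 incomplete last line was left out. Columns of circRNA and miRNA tables were not used here.

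Counts were analysed in R 4.3.3 with edgeR 4.0.16. Genes with at least 10 counts in at least 3 libraries were kept. Library sizes were TMM-scaled, and all 4 ages entered 1 quasi-likelihood fit. SEs were derived from the F statistic and the log2 fold change. "Rose" and "fell" mean a Benjamini-Hochberg adjusted p under 0.05 over all 5526 genes. CPM use TMM-scaled library sizes. The log2 levels behind the Pearson correlations have a prior count of 2. Log2 levels set against the other mitosis genes or against the P1 mean are of CPM with no prior count. Alternatives used limma 3.58.1, DESeq2 1.42.0, other scalings and filters, 2 ages only, the number in the column name as a block, the study's thresholds and leaving out each library. Adding the counts of both CDC25C rows was chosen after seeing the data. Plots were drawn with Python 3.11.15 and matplotlib 3.10.9. The fit was checked on simulated counts whose true changes were known.

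The genes named are the 10 mitosis genes, per list the 3 genes with the smallest p over the 4 ages among those that passed, and the 10 genes most correlated with the mean of the mitosis genes. Some results under this rule are not reported here. LIN37, the core subunits, FZR1, E2F4, CDKN2B and the genes in other observations were named after their values were seen. The 10 genes and the lists were chosen with earlier results of these data known. The pigs are separate animals. P-values measure the spread between 3 pigs per age, and the total counts of 8887176 to 14883849 limit the precision of genes with low counts.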

Additional observations from a re-analysis of the deposited data

How the results depend on the processing

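Of the 10 mitosis genes, 0 passed from P1 to P3 in every alternative run, and 10 passed from P7 to P28 and over all ages in every one. From P1 to P7, where 1 passed, there were 7 with library totals without TMM, 8 without a filter on low counts, 8 with DESeq2, 8 with limma voom, 9 with only these 2 ages in the fit and 10 by the study's thresholds, and 0 to 8 with 1 library left out. The share of all genes that rose there, 1.47%, was 3.06%, 1.67%, 4.33%, 2.75% and 4.14% under the first 5 of these. From P3 to P7, where 3 passed, there were 5, 8, 7, 8, 0 and 10 under these settings in the same order, and 0 to 9 with 1 library left out, and the share of all genes, 1.61%, was 1.86%, 1.46%, 3.78%, 2.10% and 0.217% under the first 5. From P1 to P28, where 2 passed, there were 5 by the study's thresholds and 0 to 5 with 1 library left out. From P3 to P28, where 2 passed, there were 0 with only these 2 ages, 4 by the study's thresholds and 0 to 4 with 1 library left out. Without TMM the median log2 fold change over all genes moved from -0.01 to 0.13 from P1 to P7 and from 0.01 to -0.12 from P7 to P28. Otherwise the cause was not tested. Over 924 values of single mitosis genes under alternatives, 0 changed direction, 43 lost a call and 82 gained one. These cover P1 to P7, P3 to P7, P7 to P28 and P1 to P28 for all 10 genes, and P3 to P28 for CDC25C and CDCA8. From P3 to P28, 4 of 220 values over the 10 genes changed direction, all without P3 pig 6 (TTK 0.04, NDC80 0.07, ECT2 0.08 and NUSAP1 0.12). From P1 to P3, where none passed, 17 of 220 did, 4 of them without P3 pig 6 (CCNB2 -0.63, CDC25C -0.20, CDC20 -0.27 and CDCA8 -0.36), 1 with limma voom and 12 without another P1 or P3 library. Of the 31 other mitotic genes, 17, 18, 19, 18 and 23 rose from P1 to P7 under the first 5 settings in the order above, where 12 did in the report (kinetochore and checkpoint 7, 7, 8, 8 and 10 of 10, spindle and cytokinesis 6, 7, 7, 6 and 9 of 12, and 2 anaphase-promoting complex genes in each). Of the 17 S phase genes 11, 9, 13, 10 and 14 rose there, and 4, 9, 10, 5 and 6 fell from P1 to P28. From P7 to P28 the counts that fell were 23, 23, 23, 23 and 25 of 31 and 16, 15, 15, 15 and 17 of 17, and with only the 2 ages 4 of 6 anaphase-promoting complex genes fell. The shares of all genes that fell there were 13.0%, 6.69%, 12.4%, 10.5% and 16.0%. RBL2, which did not differ from P1 to P7 by the test (-0.03), was at 0.10 with library totals without TMM, and ran from -0.08 to 0.03 with 1 library left out, above 0 without P1 pig 5 or P7 pig 5.

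The numbers in the column names did not pair the pigs: of 18 correlations between deviations of same-numbered libraries 5 were over 0.1 (from -0.186 to 0.331). With the number as a replicate block, 2 mitosis genes passed from P1 to P7, CHAF1B passed there (adjusted p = 0.0460), and FBXO5 did not (adjusted p = 0.0526). The rise of LIN37 from P7 to P28 was lost with the block (adjusted p = 0.0694), with library totals without TMM (0.201) and without a filter on low counts (0.114).

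Levels near 20 counts, as for CDCA8 in P28 pig 6, are measured with low precision, and with 3 pigs per age leaving out 1 library changed the number of mitosis genes called from P1 or P3 to P7 and from P1 or P3 to P28, and not from P1 to P3 or from P7 to P28.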

Other observations

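Among all genes tested, those whose log2 level ran most opposite to the mean of the mitosis genes over the 12 libraries were looked up after the values were seen and are given as descriptions. GANC (r = -0.961), an alpha-glucosidase, had 153 ± 3.97 CPM at P1, 129 ± 4.07 at P7 and 173 ± 5.28 at P28 (SD, n = 3). KAT5 (r = -0.940), the acetyltransferase TIP60, had 61.4 ± 4.82, 50.9 ± 3.12 and 73.8 ± 3.10 CPM at these ages. NR1D2 (r = -0.935), a repressor of the circadian clock also called REV-ERB beta, had 359 ± 11.2 CPM at P1, 374 ± 70.1 at P3, 247 ± 4.93 at P7 and 505 ± 80.1 at P28. The time of day at which hearts were collected is not given in the sources used here.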
